A study of Sus scrofa with 12 samples.

Results

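The genes described here are the feeding peptides of the arcuate nucleus, the receptors of the hormones and peptides that reach or leave its neurons, and the homeobox factor BSX. They were chosen by symbol, from a list of 10 names, and 9 of the 10 had a row among the 19256 mRNA genes of the pig hypothalamus. These were AGRP, NPY, CARTPT, BSX, LEPR, INSR, GHSR, MC3R and MC4R. POMC had no row under that name and was not analysed here. Long RNA was sequenced from a piece of the hypothalamus of 3 germ-free (GF) pigs and 3 colonized (CG) pigs. All 6 were piglets of 1 Chinese Bama sow, delivered by hysterectomy and raised in sterile isolators. The CG pigs received fecal microbiota of a single donor from day 3 to day 7 of life, and the GF pigs received none. The labels give every pig as male and 45 days old, and the paper's methods give a slightly younger age. Several piglets shared an isolator, so isolator and group cannot be told apart.

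The arcuate nucleus lies at the base of the hypothalamus, where blood-borne signals of energy state reach the brain. Its AGRP neurons, which also release NPY and GABA, drive feeding, while its POMC neurons, many of which express CARTPT in rodents, restrain it. Melanocortin peptides cut from POMC activate the receptors MC4R and MC3R, and AGRP blocks both. Leptin from fat and insulin from the pancreas act on these neurons through LEPR and INSR, and ghrelin from the stomach activates AGRP neurons through GHSR. BSX is needed for the full expression of Agrp and Npy in mice.

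Values are TPM, a unit that divides the reads of each transcript by its length and by the size of the library, and the TPM of all mRNA transcripts of a gene were added up. Fold changes compare GF with CG pigs as differences of log2(TPM + 1), which shrinks the changes of low genes. A gene was called when limma gave an adjusted p under 0.05, over all 14641 tested genes, and its log2 fold change was 1 or more in size. The sequencing depth cannot be recovered from TPM, the reads behind each value are unknown, and a gene listed at 0 was not shown to be absent. Of 57 genes with symbols of cytosolic ribosomal proteins, 1 was listed at 0 in each of 4 of the 6 libraries. Whether this was the same gene in all 4, and whether the hypothalamus uses it, was not determined.

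Some libraries stood apart. In GF replicate 1 the summed TPM of 13 genes of other hypothalamic zones, such as OXT and PMCH, was 43.5, against 1157 and 1058 for the other GF pigs and 1070 to 2567 for CG pigs. OXT made up most of this sum in every library but GF replicate 1. Of the 11 tested genes of this list, 8 lay lower in GF pigs without overlap and 0 higher. Across all tested genes these shares were 32.8% and 5.42%. PMCH was among the 8, at 0, 33.4 and 84.7 TPM in GF replicates 1, 2 and 3, against 165 to 363 TPM in CG pigs. Summed markers of the thalamus, a neighbouring region, stood at 3272 TPM in GF replicate 1 and 2047 TPM in GF replicate 3. In GF replicate 2 they stood at 406 TPM, below the 431 to 522 TPM of CG pigs. Pituitary markers summed to 5660 TPM in CG replicate 3. In CG replicates 1 and 2 they summed to 328 and 85.0 TPM, and in no GF pig to more than 21.3 TPM. Y-linked genes summed to 29.0 and 35.1 TPM in CG replicates 1 and 2 and to at most 0.04 TPM in CG replicate 3 and the GF pigs, which goes against the labelled sex of these 4 pigs. The feeding genes are therefore also given without the libraries concerned.

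**Figure D1:**
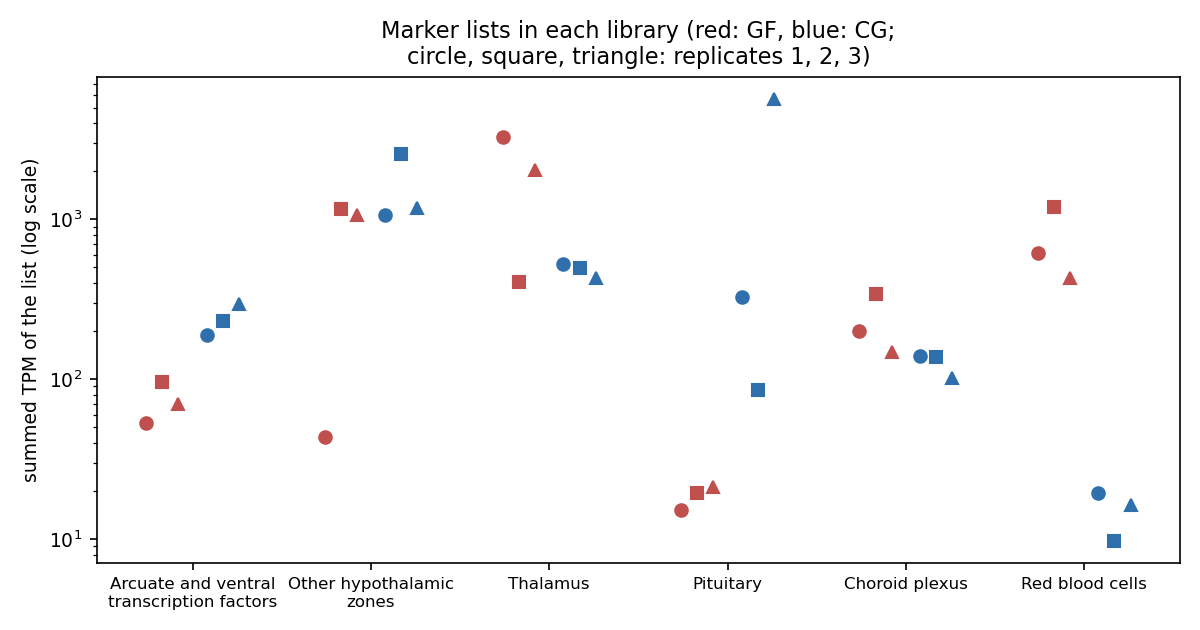
Summed TPM of 6 marker lists (y axis, log scale) in each library, red for GF pigs and blue for CG pigs, with circles, squares and triangles for replicates 1, 2 and 3. The arcuate and ventral factors were at 53.6 to 96.3 TPM among GF pigs, against 188 to 294 TPM among CG pigs, the thalamus markers were high in GF replicates 1 and 3, and the pituitary markers were highest in CG replicate 3.

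AGRP and BSX were close to 0 in every GF pig and present in every CG pig, LEPR was lower in GF pigs, and the other 6 genes were not called. Thus 3 of the 9 genes were called lower in GF pigs and 0 higher, where 2.42% of all tested genes were called lower and 0.471% higher by limma, 2.89% together. Of these 3, AGRP and BSX were under 1 TPM in every GF pig. They entered the test through their CG values alone and could be called only lower, which limits the comparison with all tested genes. At an unadjusted p under 0.05, 5 of the 9 were lower and 0 higher, where 26.6% of all tested genes were lower and 4.31% higher. Without the fold threshold, the same 3 genes were called, beside 4.93% of all tested genes lower and 1.08% higher. The median log2 fold change of the 9 genes was -1.10, and that of all tested genes was -0.23. With the log2 values of each library centred on their median, 97 of all tested genes were called lower and 122 higher, against 354 and 69 without centring, and the same 3 feeding genes were called in both. In a bulk sample, fewer cells of a type and less RNA per cell cannot be told apart.

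**Figure D2:**
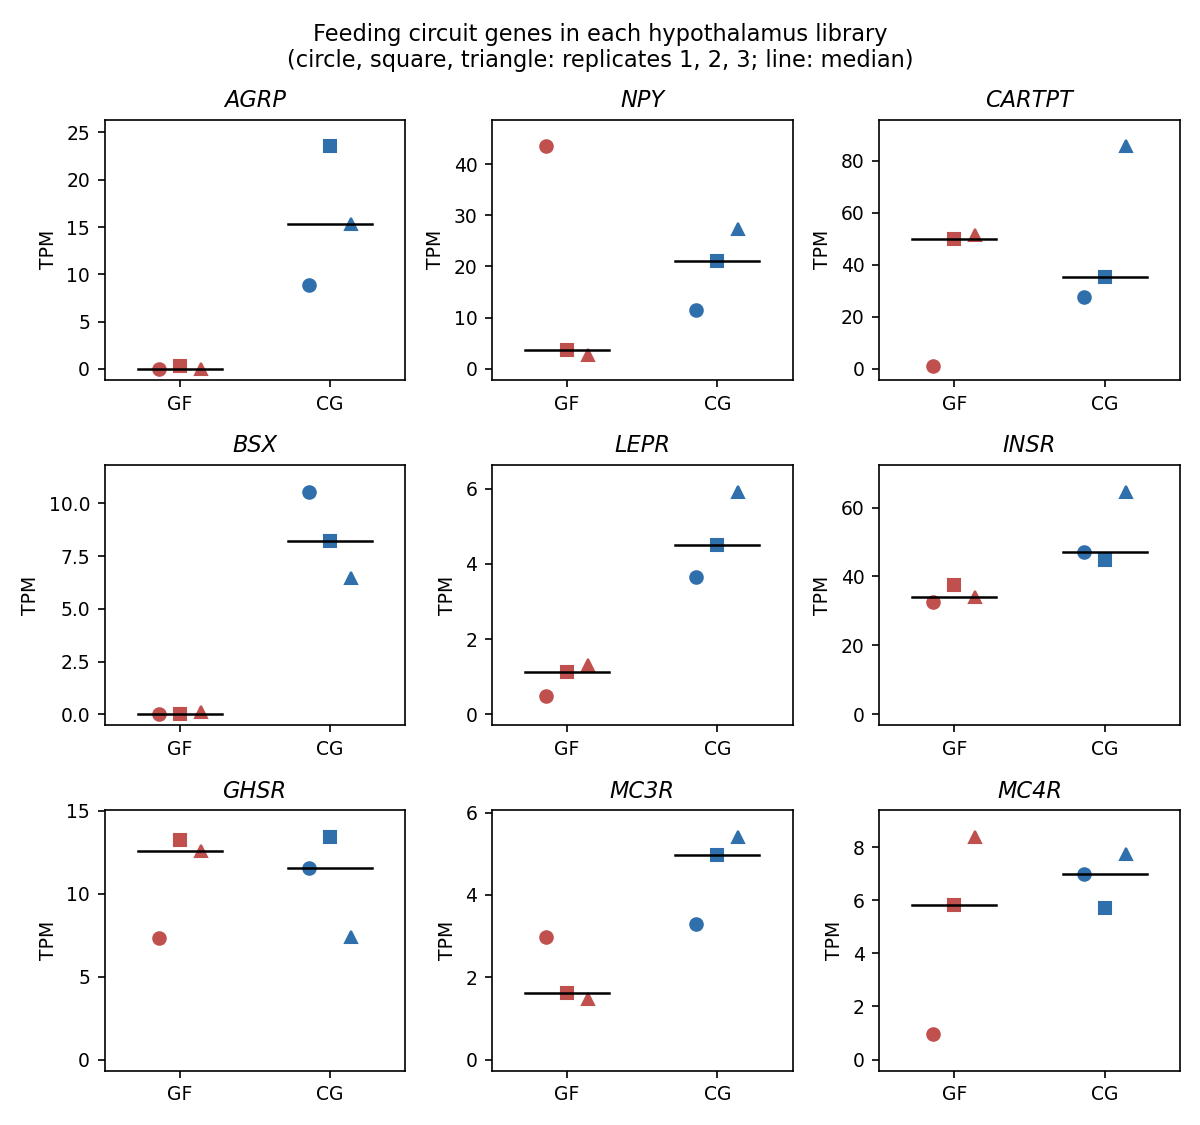
TPM (y axis, linear) of the 9 genes in each library of GF pigs (red) and CG pigs (blue), with circles, squares and triangles for replicates 1, 2 and 3 and a line at the median. AGRP and BSX of GF pigs lie at 0.28 TPM or less, and the GF points of LEPR, INSR and MC3R lie below all CG points.

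AGRP, the orexigenic antagonist of the melanocortin receptors, has its gene on chromosome 6 from 28132614 to 28135594 (Sscrofa11.1, RefSeq gene table). It was listed at 0, 0.28 and 0 TPM for GF replicates 1, 2 and 3, against 8.83, 23.5 and 15.3 TPM in CG replicates 1, 2 and 3. No GF pig came near the lowest CG pig, and the CG pigs spread among themselves by more than the whole GF group did. On the log2 scale the fold change was -3.86 (95% confidence interval -4.65 to -3.07, adjusted p = 0.0062). Because 2 of the GF pigs are at 0, the size of the fold change is set by the pseudocount, and it was -6.57 at a pseudocount of 0.1. The gene entered the test through its CG values alone, since no GF pig reached 1 TPM. The single AGRP transcript in the files, ENSSSCT00000003073, held all of this signal. The fold change stayed between -4.20 and -3.54 when any 1 library was left out, with a call in 6 of 6 fits. Without both GF replicate 1 and CG replicate 3 it was -3.78, and the adjusted p was 0.068.

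Markers of the tissue held by each piece were read beside AGRP. The summed factors of the arcuate and ventral hypothalamus were lower in all GF pigs, at 53.6 to 96.3 against 188 to 294 TPM, and their part in the results for AGRP, BSX and LEPR was not tested. SIX3, also in the list of other hypothalamic zones, made up 33.1 of the 53.6 TPM of GF replicate 1. It stood at 18.9 to 37.7 TPM among CG pigs. Of the 15 tested factors, 11 lay lower in GF pigs without overlap and 0 higher, against 32.8% and 5.42% of all tested genes. GF replicate 2, with summed thalamus markers below the CG range, had 0.28 TPM of AGRP. Its single thalamus markers went both ways. TCF7L2 stood at 40.7 TPM there, against 32.4 to 39.4 TPM among CG pigs. SLC17A6 stood at 24.3 TPM there, against 57.7 to 78.5 TPM among CG pigs. CG replicate 2, with the lowest pituitary sum of the CG pigs, had the highest AGRP. That sum, 85.0 TPM, was still above the 21.3 TPM or less of the GF pigs. CG replicate 3, whose Y-linked genes were as low as those of the GF pigs, had 15.3 TPM. The markers of red blood cells summed to 427 to 1196 TPM for GF pigs and 9.77 to 19.5 TPM for CG pigs. The choroid plexus markers summed to 148 to 339 and 101 to 141 TPM, a difference carried by TTR, without which the sums were 68.8 to 138 and 91.8 to 133 TPM. Of the 8 choroid plexus markers tested, 2 were called higher in GF pigs and 0 lower, where 0.471% of all tested genes were called higher and 2.42% lower. The log2 fold change was below 0 for 4 of the 8. The part of thalamus, pituitary, sex, blood and choroid plexus in the result for AGRP was not tested, and values of single libraries cannot decide it.

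NPY, the peptide that AGRP neurons release beside AGRP and that many other forebrain neurons also make, lies on chromosome 18 from 47985796 to 47993726. It was listed at 43.5, 3.72 and 2.76 TPM for GF replicates 1, 2 and 3, against 11.6, 21.0 and 27.3 TPM in the CG pigs. GF replicate 1 was thus the highest of all 6 libraries and the other GF pigs were the lowest, so the groups overlapped. Its fold change of -1.10 (log2) had a confidence interval of -3.18 to 0.97 and was not called (adjusted p = 0.43). Without GF replicate 1 it was -2.24 (standard error 0.36, adjusted p = 0.061). GF replicate 1 also had the highest thalamus sum and the lowest sum of other hypothalamic zones, and their part in its NPY value was not tested. One of the NPY transcripts, ENSSSCT00000018199, held the whole signal, and the other was listed at 0 in all 6 libraries.

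AGRP neurons make both peptides, so AGRP was also set against NPY within each library. AGRP stood at 76.4%, 112% and 56.0% of the NPY level in CG replicates 1, 2 and 3. The GF values were 0%, 7.53% and 0%, in the same order of replicates. With AGRP at or near 0, the GF percentages restate the AGRP levels, and the log2 difference of a GF pig is set mainly by its NPY. The difference of log2(TPM + 1) between AGRP and NPY was -3.09 ± 2.07 in GF pigs and -0.33 ± 0.48 in CG pigs (SD, n = 3), lower in all 3 GF pigs than in any CG pig (two-sided exact permutation test, p = 0.10, which is the lowest p that 3 pigs against 3 allow). Without GF replicate 1, which had the high NPY, the group difference went from -2.76 to -1.57 on the log2 scale.

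**Figure D3:**
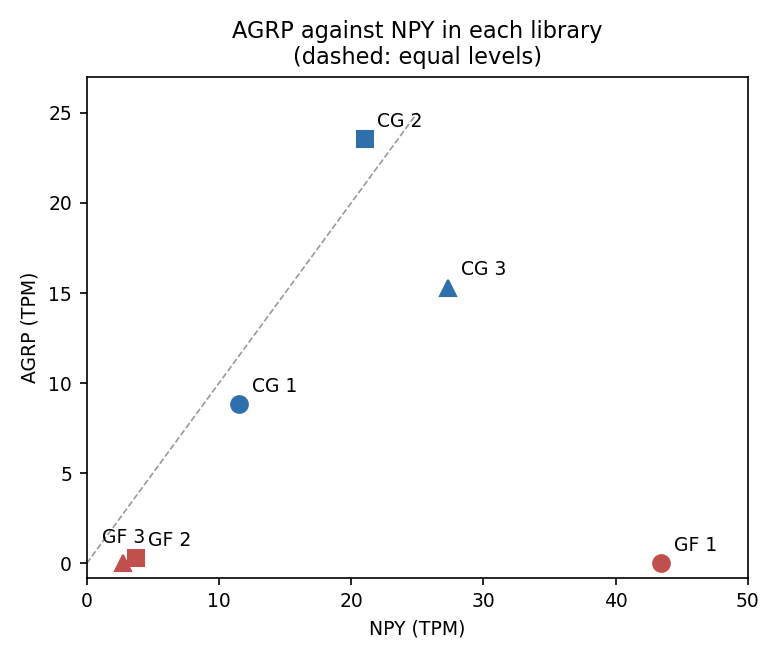
AGRP (y axis, TPM) against NPY (x axis, TPM) in each library, red for GF and blue for CG pigs, with a dashed line at equal levels. CG replicates 1 and 2 lie near the line, and CG replicate 3 lies below equal levels, with 15.3 TPM of AGRP and 27.3 TPM of NPY. GF replicates 2 and 3 lie at 2.76 to 3.72 TPM of NPY with AGRP at 0.28 TPM or less, and GF replicate 1 has 43.5 TPM of NPY with AGRP at 0.

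CARTPT encodes the CART peptides, which reduce feeding when given into the brain of rodents and which are made in several hypothalamic nuclei besides the arcuate. It lies on chromosome 16 from 48043558 to 48045592. It was listed at 0.94, 50.1 and 51.4 TPM for GF replicates 1, 2 and 3, against 27.9, 35.3 and 85.6 TPM among CG pigs. GF replicates 2 and 3 lay inside the CG range, and only GF replicate 1 was near 0. Its log2 fold change of -1.38 (-4.24 to 1.48) was not called (adjusted p = 0.48), and without GF replicate 1 it turned to 0.20 (adjusted p = 0.81). The summed markers of other hypothalamic zones were also lowest in GF replicate 1, and their part in its CARTPT value was not tested.

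BSX, the homeobox factor, lies on chromosome 9 from 49873031 to 49910581. It stood at 0, 0 and 0.10 TPM for GF replicates 1, 2 and 3, against 10.6, 8.21 and 6.48 TPM among CG pigs. The order of the CG pigs differed from that of AGRP, with BSX highest and AGRP lowest in CG replicate 1. In log2 units, the difference was -3.17 (-3.68 to -2.66, adjusted p = 0.0027). Like AGRP, BSX entered the test through its CG values alone. It was called in all 13 alternative settings tried, with fold changes from -6.05 at a pseudocount of 0.1 to -2.92 after centring. Dropping the fold threshold, 1 of these settings, cannot undo the call of any gene.

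**Figure D4:**
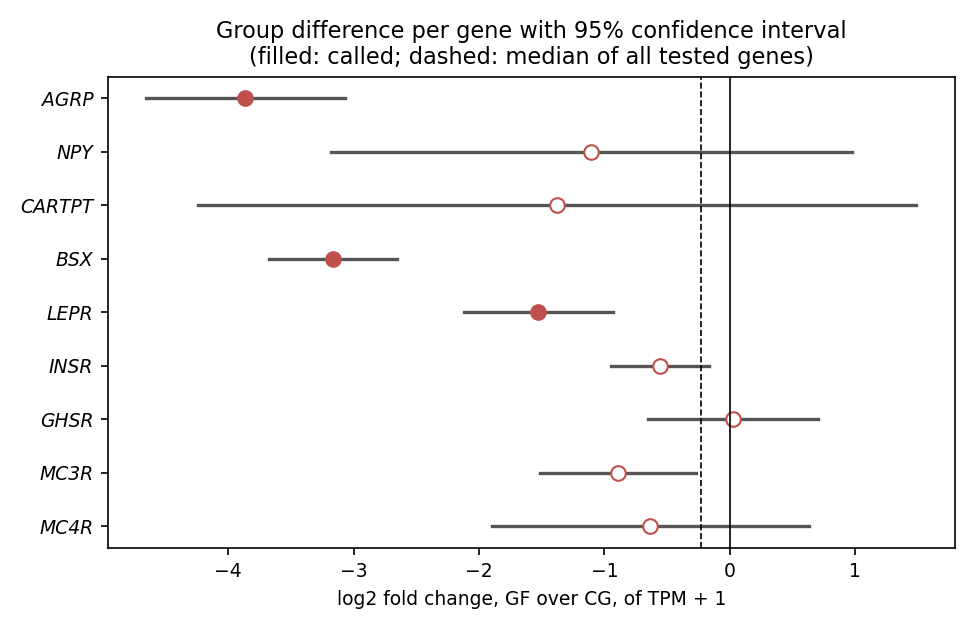
Log2 fold change of GF over CG (x axis, of TPM + 1) of the 9 genes, with bars for the 95% confidence interval of the limma fit, which is not adjusted for the number of genes. Filled points mark AGRP, BSX and LEPR, the called genes, and the dashed line marks the median of all tested genes at -0.23.

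LEPR, the leptin receptor, lies on chromosome 6 from 146802297 to 146896152. It was low throughout, at 0.49, 1.13 and 1.32 TPM for GF replicates 1, 2 and 3, against 3.64, 4.51 and 5.92 TPM among CG pigs. Every GF pig lay below every CG pig, and the mean of the CG pigs was 4.79 times that of the GF pigs. Its log2 fold change of -1.53 (-2.12 to -0.94) was called (adjusted p = 0.032). The call was lost in 5 of the 6 fits with 1 library left out, all but that without GF replicate 2, at adjusted p values of 0.069 to 0.15 and fold changes of -1.67 to -1.34. Without both GF replicate 1 and CG replicate 3, the library with the most pituitary markers and the most LEPR, it was -1.19 (adjusted p = 0.082).

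The LEPR signal was spread over 4 transcripts, and none of them alone was called. ENSSSCT00000049356 stood at 0.11, 0.26 and 0.54 TPM among GF pigs, against 1.07, 1.59 and 1.78 TPM among CG pigs, and was the only LEPR transcript with enough signal to test (log2 fold change -0.93, adjusted p = 0.062 over 27945 transcripts, of which 3.95% were called lower and 1.86% higher). ENSSSCT00000028665 stood at 0.09, 0.19 and 0.45 TPM among GF pigs, against 2.22, 0.94 and 1.31 TPM among CG pigs. ENSSSCT00000089477 was listed at 0 in CG replicate 1 and in GF replicates 1 and 3, at 0.42 TPM in GF replicate 2 and at 1.66 and 2.31 TPM in CG replicates 2 and 3. ENSSSCT00000075980 differed least, at 0.26 to 0.33 TPM among GF pigs, against 0.32 to 0.52 TPM among CG pigs. It made up 23.0% to 59.2% of the LEPR signal of GF pigs and 7.09% to 9.62% of that of CG pigs. The files do not say which transcript encodes the long, signaling form of the receptor.

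Of the 9 genes, LEPR was the one for which the study designed primers for quantitative PCR. They are shown because they define the stretch of LEPR that was measured by a second method, whose values were not analysed here. Their place among the 4 transcripts was not determined.
LEPR forward primer: gaggcagttgttgaaacgga
LEPR reverse primer: tgttccagtttgcacctgtt

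INSR, the insulin receptor, on chromosome 2 from 71797209 to 71939923, had the highest mean level of the 9 genes in both groups. It stood at 32.6, 37.5 and 34.02 TPM for GF replicates 1, 2 and 3, a mean of 34.7 ± 2.56 TPM, and at 47.0, 44.8 and 64.6 TPM among CG pigs, a mean of 52.2 ± 10.9 TPM (SD, n = 3). No GF pig reached the lowest CG pig. The log2 fold change of -0.56 (-0.95 to -0.17) was not called (adjusted p = 0.080) and was -0.31 after centring of the libraries, where the median over all genes was 0.01. Leaving out any 1 library gave -0.66 to -0.40, and leaving out GF replicate 1 with CG replicate 3 gave -0.35, with no call. Of its transcripts, ENSSSCT00000014817 held 86.2% to 100% of the signal in every library.

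GHSR, the ghrelin receptor, on chromosome 13 from 110981465 to 111006149, showed no group difference that could be told from the spread of the pigs. It stood at 7.32, 13.2 and 12.6 TPM for GF replicates 1, 2 and 3, against 11.6, 13.4 and 7.41 TPM among CG pigs, with 11.0 ± 3.23 and 10.8 ± 3.08 TPM as the means (SD, n = 3). The lowest values were those of GF replicate 1 and CG replicate 3. The log2 fold change was 0.02, with an interval of -0.65 to 0.70 that leaves room for a change of either sign (adjusted p = 0.97). It ran from -0.20 without CG replicate 3 to 0.27 without GF replicate 1 and was 0.04 without both. Its transcript ENSSSCT00000042290 carried 92.0% to 96.2% of the signal of GF pigs and 76.9% to 90.6% of that of CG pigs.

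The melanocortin receptors differed in pattern. MC3R, on chromosome 17 from 56868525 to 56869605, is made by AGRP neurons among others in rodents. It stood at 2.98, 1.61 and 1.46 TPM for GF replicates 1, 2 and 3, against 3.29, 4.96 and 5.41 TPM among CG pigs. The groups did not overlap, though GF replicate 1 came within 10% of CG replicate 1, and the log2 fold change of -0.89 (-1.52 to -0.27) was not called (adjusted p = 0.079). It was -1.11 without GF replicate 1, -0.76 without GF replicate 3, -0.78 without CG replicate 3 and -0.997 without GF replicate 1 and CG replicate 3, again with no call.

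MC4R, on chromosome 1 from 160772013 to 160774124, acts chiefly in neurons of the paraventricular nucleus, which receive the arcuate peptides. It stood at 0.96, 5.82 and 8.39 TPM for GF replicates 1, 2 and 3, against 7.00, 5.70 and 7.76 TPM among CG pigs. Only GF replicate 1 lay below the CG range, and GF replicate 3 was the highest of all. The log2 fold change of -0.63 (-1.89 to 0.63) was not called (adjusted p = 0.46) and was 0.04 without GF replicate 1. SIM1, the transcription factor of paraventricular neurons, was low in the same library, at 0.05 TPM against 2.75 and 3.59 TPM in the other GF pigs and 6.38 to 9.63 TPM among CG pigs.

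Of the 9 genes, 5 did not overlap between the groups, AGRP, BSX, LEPR, INSR and MC3R, all lower in GF pigs. Across all tested genes 32.8% lay lower in GF pigs without overlap and 5.42% higher, and the median difference of all genes, -0.23, lay in the same direction.

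**Figure D5:**
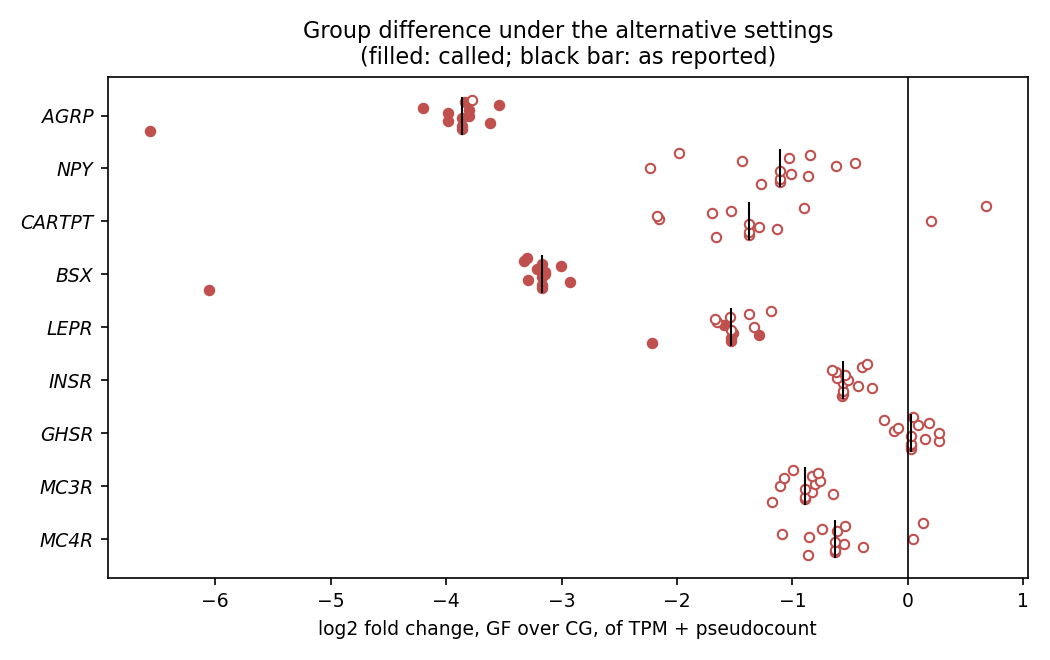
Log2 fold change of GF over CG (x axis) of the 9 genes under each of the 13 alternative settings, with filled points where the gene was called and a black bar at the value reported. AGRP and BSX lie at -2.92 or below in every setting, their points farthest left are those at a pseudocount of 0.1, and CARTPT and MC4R cross 0 without GF replicate 1.

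In order of mean level, CG pigs had INSR (52.2 TPM), CARTPT (49.6), NPY (19.97), AGRP (15.9), GHSR (10.8), BSX (8.42), MC4R (6.82), LEPR (4.69) and MC3R (4.55). Ranges of neighbours in this order overlapped, with 1 exception, as the highest NPY value of 27.3 TPM lay just below the lowest CARTPT value of 27.9 TPM. In GF pigs the order was INSR (34.7 TPM), CARTPT (34.2), NPY (16.6), GHSR (11.0), MC4R (5.06), MC3R (2.02) and LEPR (0.98), followed by AGRP and BSX, listed at 0 or close to it. There the ranges of MC3R and LEPR and those of LEPR and AGRP did not overlap, and the other neighbours did. AGRP was thus the fourth of the 9 genes in CG pigs and the next to last in GF pigs.

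Over the 6 libraries, the profile of AGRP on the log2(TPM + 1) scale was most like those of ANKH, a membrane transporter (Pearson's r = 0.996), RMND5B, a subunit of a ubiquitin ligase (0.995), and MCUR1, a regulator of mitochondrial calcium uptake (0.994), among 12656 genes with a symbol and a mean of at least 1 TPM. The profile of LEPR was most like those of MED23 of the Mediator complex (0.9997), the splicing factor SF3B1 (0.998) and MEST, an imprinted gene (0.998). Each of these genes was lower in all 3 GF pigs, as MEST at 24.7 to 42.5 TPM against 111 to 160 TPM among CG pigs. These values describe 6 libraries of 2 groups, and 416 genes reached an r of 0.95 with AGRP and 698 with LEPR.

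Other genes of the same pathways were read in the same fit. Of 139 tested genes in 9 lists, 13 were called lower and 0 higher (limma), where 2.42% of all tested genes were called lower and 0.471% higher. The called counts of each list that follow are to be read against the same shares. The median log2 fold change of the 139 genes was -0.64, and that of all tested genes was -0.23. At an unadjusted p under 0.05, 73 were lower and 3 higher, to be read against 26.6% and 4.31% of all tested genes, as are the unadjusted counts of each list that follow. Of the 13, SIX6, NR5A1 and KISS1 were under 1 TPM in every GF pig and so entered the test through their CG values alone. The count was 24 without GF replicate 2, 3 without GF replicate 1 or 3 or CG replicate 3, and 1 without CG replicate 1 or 2. Most of the 13 were in the lists of arcuate and ventral hypothalamic factors and markers.

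Of 15 tested transcription factors of the arcuate and ventral hypothalamus, 5 were called lower and 0 higher (11 lower and 0 higher at an unadjusted p under 0.05). Their median log2 fold change was -1.79. NR5A1, a factor of ventromedial neurons, was listed at 0.11 to 0.34 TPM among GF pigs, against 5.64 to 13.7 TPM among CG pigs. ISL1, a factor of POMC and other arcuate neurons in mice, stood at 3.82 to 5.68 TPM and 14.2 to 27.02 TPM (log2 fold change -1.90, adjusted p = 0.026). HMX3 and SIX6, homeobox factors of the developing hypothalamus, had fold changes of -2.56 and -2.50. The fifth was NKX2-1, named after its values were seen, at 0.10, 5.49 and 3.11 TPM among GF pigs, against 35.4 to 40.0 TPM among CG pigs. It was thus above 1 TPM in GF replicates 2 and 3.

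Of 20 tested further peptides and markers of arcuate neurons, 5 were called lower and 0 higher (17 lower and 0 higher at an unadjusted p under 0.05). SLC18A2, the vesicular monoamine transporter, stood at 1.34 to 4.35 TPM among GF pigs, against 23.2 to 38.9 TPM among CG pigs. GHRH, the releasing hormone of growth hormone, had a log2 fold change of -3.21. CRABP1, a retinoic acid-binding protein, stood at 6.30, 15.7 and 14.7 TPM among GF pigs, against 54.9 to 134 TPM among CG pigs (log2 fold change -2.68, adjusted p = 0.029). KISS1, kisspeptin, had a fold change of -1.41, and the remaining called gene was TAC1, named after its values were seen (-1.94). In the list of other hypothalamic zones, all 11 tested genes had a log2 fold change below 0, with a median of -2.32. At an unadjusted p under 0.05, 8 of them were lower and 0 higher. HDC, the enzyme that makes histamine, was the only one of the 11 that was called (log2 fold change -4.50). Many of these calls were lost under other settings, as that of TAC1 held in 1 of 13 alternatives, those of HMX3 and KISS1 in 6 and that of NR5A1 in 10, while the fold changes of these 4 genes stayed below 0. For TAC1 that 1 setting was the fit without the fold threshold, which cannot undo a call.

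Of 13 tested genes of POMC processing and melanocortin modulation, 1 was called lower and 0 higher (7 and 0 at an unadjusted p under 0.05). It was PCSK1N, whose product proSAAS inhibits the prohormone convertase PCSK1, at 517, 586 and 626 TPM among GF pigs, against 1154 to 1265 TPM among CG pigs (log2 fold change -1.07, adjusted p = 0.028). With centred libraries or with mitochondrial genes left out of the scaling it was not called, and its call held in 4 of 13 settings. Every one of the 3 tested receptors of NPY stood lower in GF pigs and none was called by limma (3 lower and 0 higher at an unadjusted p under 0.05). NPY1R, the receptor most closely tied to feeding together with NPY5R, stood at 5.54, 6.36 and 9.35 TPM among GF pigs, against 12.5 to 14.9 TPM among CG pigs (adjusted p = 0.052), and NPY5R at 2.77 to 4.76 TPM and 6.25 to 8.01 TPM (adjusted p = 0.093). Neither range overlapped.

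Of the 13 tested genes of leptin signaling and the 24 of insulin signaling, none was called by limma in either direction (5 lower and 0 higher, and 10 lower and 1 higher, at an unadjusted p under 0.05), against 26.6% and 4.31% of all tested genes, and the medians of -0.29 and -0.31 lay close to that of all genes. FOXO1, the transcription factor that insulin and leptin signals restrain, differed by -0.57 in log2 units (adjusted p = 0.063), and STAT5A, a target of receptor-bound kinases, by -0.88 (adjusted p = 0.068). IRS1, an adaptor of the insulin receptor, passed the adjusted p but not the fold threshold, at 11.99 to 16.01 TPM among GF pigs, against 22.6 to 28.7 TPM among CG pigs (log2 fold change -0.81, adjusted p = 0.047). SHC1, another adaptor, had a fold change of -0.69 (adjusted p = 0.057). IRS4, an adaptor abundant in the hypothalamus and named after its values were seen, stood at 1.36, 43.4 and 20.7 TPM among GF pigs, against 108 to 139 TPM among CG pigs (log2 fold change -3.20, adjusted p = 0.078).

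Of 16 tested genes of ghrelin processing and energy sensing none was called by limma (2 lower and 2 higher at an unadjusted p under 0.05), and the median of -0.02 was above that of all genes. UCP2, a mitochondrial carrier that ghrelin raises in AGRP neurons of mice, stood at 35.0 to 55.4 TPM among GF pigs, against 26.2 to 29.4 TPM among CG pigs (log2 fold change 0.68, adjusted p = 0.064). LEAP2, an antagonist of GHSR, stood at 0.37 to 0.42 TPM and 1.10 to 1.26 TPM (adjusted p = 0.069). LEAP2 was low in both groups and entered the test through its CG values alone. Of 26 tested receptors of other feeding signals, 1 was called lower and 0 higher (11 and 0 at an unadjusted p under 0.05). It was NPFFR1, a receptor of RFamide peptides, at 0.82, 1.73 and 1.14 TPM among GF pigs, against 3.43 to 4.17 TPM among CG pigs (log2 fold change -1.13, adjusted p = 0.041), a call that held in 3 of 13 settings and in neither of the other scalings.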

How the data were processed

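The authors deposited a TPM value for each mRNA transcript and library, from long RNA reads aligned to Sscrofa11.1. The paper names TopHat, Cufflinks and HTSeq, and the submitters' processing notes name fastp, HISAT and RSEM. Summed over mRNA, libraries held 793723 to 845526 TPM. All 6 long RNA columns were assigned by their names, and 0 were left over. The small RNA and lncRNA tables were not used here. For 654 of 4794 genes without a name in the table, symbols came from a table of gene IDs.

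TPM were summed per gene and log2(TPM + 1) was compared with limma 3.58.1 (trend) in R 4.3.3 for genes with at least 1 TPM in at least 3 libraries, with Benjamini-Hochberg adjustment. The count model of the paper was not used, since TPM are not counts. Fits that leave out libraries kept the same tested genes. The fit was tested on simulated data. Tables and plots were made with Python 3.11.15 (numpy 2.4.6, pandas 2.3.3, matplotlib 3.10.9). Gene positions are from the RefSeq table of Sscrofa11.1.

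The genes, lists and tests were chosen with earlier results of these data known. Named were the 9 genes, up to 4 called genes of each list with the smallest p or else the 2 with the smallest p, and the 3 genes most like AGRP and LEPR, with OXT, PMCH and SIM1 beside results and others as said. Alternatives were a pseudocount of 0.1, no low-value filter, no fold threshold, centring, mitochondrial genes out of the scaling, a replicate block, libraries left out and, chosen after seeing the data, transcripts in place of genes.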

Additional observations from a re-analysis of the deposited data

How the results depend on the processing

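Of all tested genes, 354 were called lower and 69 higher in GF pigs. The count of lower genes was 141 without a low-value filter, 722 without a fold threshold, 97 with centred libraries, 115 with mitochondrial genes left out of the scaling, 15 without both GF replicate 1 and CG replicate 3, and 8 to 525 with 1 library left out. The count of higher genes was 158 without a fold threshold, 122 with centred libraries, 16 without those 2 libraries and 14 to 192 with 1 left out. Among the feeding genes, 3 were called lower, 1 without both libraries (BSX) and 2 to 3 with 1 left out. Of the pathway genes, 13 were called lower, 4 without both libraries and 1 to 24 with 1 left out, and the 0 called higher became 0 to 2.

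The replicate numbers did not pair the pigs, since deviations of same-numbered libraries correlated at -0.02, 0.06 and -0.01. With the replicate number as a block, 18 genes were called lower and 17 higher, 4 pathway genes were lower, and of the feeding genes AGRP and BSX were called (LEPR adjusted p = 0.063).

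CARTPT turned from -1.38 to 0.20 without GF replicate 1 and 0.68 without both libraries, and MC4R from -0.63 to 0.04 and 0.13, while without GF replicate 3 they were -2.17 and -1.09. GHSR turned from 0.02 to -0.12, -0.08 and -0.20 without GF replicate 2, GF replicate 3 and CG replicate 3, and was 0.27 without GF replicate 1. None of these was called. The direction of AGRP, BSX, LEPR, NPY, INSR, MC3R and of AGRP relative to NPY held in all settings run, with the last between -5.29 and -1.57. None of the pathway genes named with values changed direction, while STAT5A and IRS4 were called without GF replicate 2. With transcripts in place of genes, chosen after seeing the data, 2 feeding gene transcripts were called, those of AGRP and BSX. The planned ratio of POMC to CARTPT was not run, as POMC had no row. The cause of these shifts was not tested, and a fit without a library also rests on fewer pigs. Reads per gene are unknown, which limits what can be said of LEPR at about 1 TPM and of values listed at 0.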
